A study of Vitis vinifera with 74 samples.

Results

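Among the genes of grapevine buds, 51 of 42413 in the bud count table stood higher in buds sprayed with abscisic acid (ABA) at 48 and 72 h while differing little from water-sprayed buds at 6 and 12 h. They were chosen from the bud counts themselves. Each count was scaled by its column total to CPM, the usual per-million unit of relative abundance, and the ABA difference at a time was log2((ABA CPM + 1)/(control CPM + 1)) of the group means. A member had a difference of at least 0.8 at 48 and at 72 h and one under 0.4 in size at 6 and at 12 h, and its 72 h control level lay less than 1 log2 unit from the pre-treatment level. Of all identifiers, 25996 had at least 1 count in buds.

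ABA is a plant hormone of water shortage, seed and bud dormancy and cold hardiness. In the known pathway, ABA binds receptors that block protein phosphatases, which frees protein kinases to activate transcription factors on ABA-responsive genes. Direct targets of these factors respond soon after the hormone arrives, and later waves of genes can follow through the transcription factors, hormones and metabolites that the early genes make. In grapevine buds ABA is known for its link with dormancy and with the delay of bud break.

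All samples came from the cultivar Cabernet Franc (Vitis vinifera). Dormant canes cut from vines in the field had met their chilling, were cut into pieces with 1 bud each and were forced in water under warm conditions to the woolly bud stage. These cuttings were then sprayed with deionized water or with 5 mM S-ABA (1322 mg per litre). Bud groups were the pre-treatment buds at 0 h and the control and ABA buds at 6, 12, 24, 48 and 72 h, 11 groups in all. In a separate experiment, potted vines in a greenhouse had their leaves sprayed with water plus Tween-20 or with 1.9 mM S-ABA (500 mg per litre) plus Tween-20. Leaves gave 8 libraries before treatment and 4 libraries for each treatment at 2, 4, 24 and 48 h. The 3′ ends of transcripts were sequenced, so a count is a tag at the end of a transcript and levels need no correction for transcript length. Dose, surfactant, tissue, times and plant material differ between the experiments, so bud and leaf values are set side by side and were not tested against each other.

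Leaf libraries held 1321798 to 2414909 counts. Bud groups have 3 count columns each, or 4 for the 48 h control, with 1526985 to 2616086 counts a column. Within a bud group, 30 pairs of columns gave a chi-square over its degrees of freedom between 1.02 and 1.17, where 1 is sampling noise, and the 6 pairs of the 48 h control gave 1.34 to 2.00. Pairs of leaf libraries gave 3.85 to 25.4. Each bud group was therefore counted as 1 sample, of 4923240 to 7698363 counts, and bud differences have no replicate check and no test. The 48 h control was treated alike, although its columns differed by more than sampling noise. Intervals given for bud ratios are 95% exact conditional intervals that cover counting error only, so those of 48 h leave out that extra spread. In whole buds and leaves, a change in the number of cells of a type and a change in RNA per cell cannot be told apart. The identifiers are not paired with gene names in the tables used here, so no role is given to a member and the tissues were not checked against marker genes.

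Most late-only genes were scarce in buds without ABA. The median member stood at 0.623 CPM before treatment, and 31 of the 51 were under 1 CPM there (60.8%), against 34.9% of all genes with a bud count. A second set made by a similar rule, with a difference of at least 0.8 at 6, 12, 48 and 72 h, held 364 genes with sustained induction, of which 33.0% were under 1 CPM before treatment. Another set, of 60 genes at least 0.8 higher at 6 and 12 h and under 0.4 at 48 and 72 h, is called early passing, and 40% of it lay under 1 CPM. The highest bud level reached by the median member was 5.85 CPM, against 37.8 CPM for the median sustained gene and 7.50 CPM for the median early passing gene. Low counts bear on the choice itself, because adding 1 CPM keeps the differences of scarce genes small. In 31 members all 4 libraries of 6 and 12 h lay under 1 CPM, and in 16 members all 4 lay at or above it.

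The rule's own values are given as a description. Over 6, 12, 24, 48 and 72 h, the median level of the members with ABA was 0.402, 0.586, 1.86, 5.85 and 3.32 CPM. The control medians were 0.416, 0.582, 0.506, 0.531 and 0.735 CPM. The ABA and control medians lay close at 6 and 12 h, and the ABA medians lay well above the control medians from 24 h on. Summed over the members, control levels were 348, 409, 256, 235 and 365 CPM, all below the 487 CPM of pre-treatment buds, and the rule itself limits the 72 h control change of each member. The difference at 48 h ran from 0.81 to 5.12 with a median of 1.61, and at 72 h from 0.80 to 3.89 with a median of 1.16. Of all genes with a bud count, 11% were at least 0.8 higher at 48 h and 9.29% at 72 h, and both times together held 829 genes, 647 of them with a steady control. For the limits of 48, 72, 6 and 12 h in turn, the nearest members had differences of 0.807, 0.804, 0.364 and 0.396, and the genes just outside had 0.796, 0.791, 0.402 and 0.405. The largest control change among members was 0.96, and the nearest gene outside had 1.20.

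**Figure D1:**
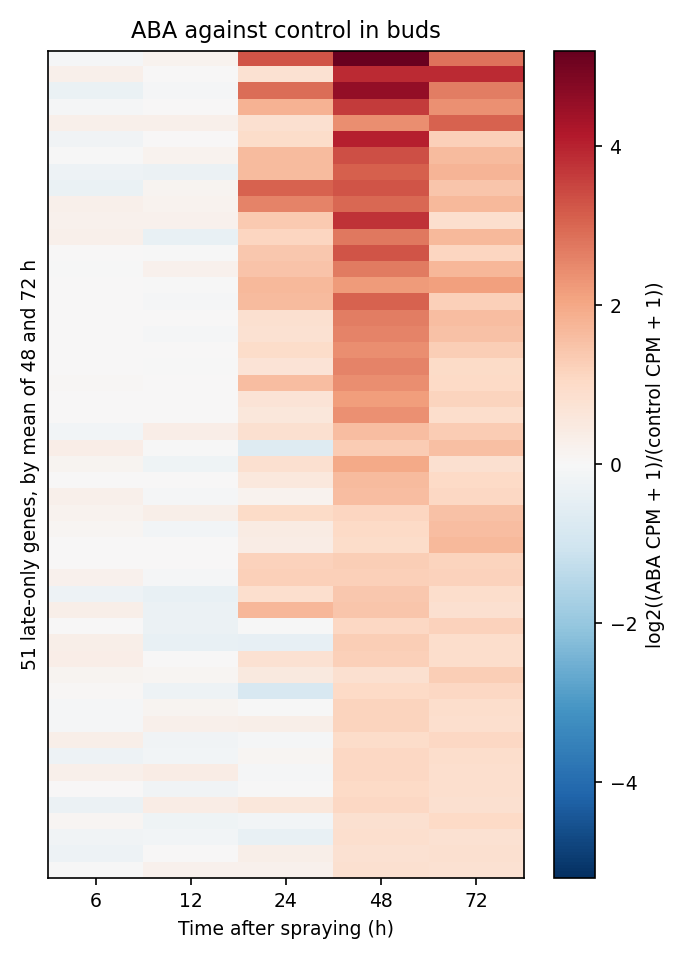
ABA difference in buds, as log2((ABA CPM + 1)/(control CPM + 1)), for the 51 late-only genes (1 row each, ordered by the mean of 48 and 72 h) at 5 times. The 6, 12, 48 and 72 h columns were used to choose the genes and the 24 h column was not; the 24 h values run from −0.84 to 3.29.

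The ABA difference was larger at 48 than at 72 h in 39 members. The ABA level itself was higher at 48 h in 32 members. In plain CPM it was at least 2-fold lower at 72 h than at 48 h in 19 members and at least 2-fold higher in 2, and on the log2(CPM + 1) scale in 16 and 0. Over the 11 bud libraries the highest level was in ABA buds of 48 h for 30 members, of 72 h for 18, of 24 h for 2 and elsewhere for 1. Against pre-treatment buds, 35 members were at least 2-fold higher with ABA at 48 h and 34 at 72 h on the log2(CPM + 1) scale, and all 51 lay above the pre-treatment level at 48 h. Controls of single members moved in both directions, often on a few tags. In plain CPM, control buds of 6, 12, 24, 48 and 72 h were at least 2-fold below pre-treatment buds in 14, 9, 13, 9 and 6 members and at least 2-fold above in 3, 7, 9, 4 and 12. Among the 20 members with at least 1 CPM before treatment, these numbers were 1, 1, 3, 3 and 1 below and 0, 2, 2, 0 and 1 above.

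A pair of abundant members carried most of the summed level. The most abundant stood at 224 CPM before treatment and at 146, 178, 81.4, 84.1 and 197 CPM in control buds at 6, 12, 24, 48 and 72 h. With ABA it stood at 173, 207, 214, 1165 and 363 CPM. Its 48 h peak was 13.7-fold above the control (interval 12.7 to 14.9), and against pre-treatment buds the log2 difference was 2.37, so the low control of 48 h made part of the larger ratio. At 6 h this gene was already 1.18-fold higher with ABA (interval 1.08 to 1.29), inside the limit of the rule.

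The second most abundant member also peaked at 48 h with ABA. It stood at 118 CPM before treatment, at 78.3, 98.8, 63.6, 59.9 and 65.7 CPM in control buds, and at 79.8, 94.3, 199, 508 and 155 CPM with ABA. Its level at 24 h was 3.11-fold above the control (interval 2.78 to 3.49), and its 48 h ratio was 8.51 (interval 7.71 to 9.40). Both genes had returned most of the way by 72 h, with log2 differences of 0.88 and 1.23.

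Vitvi18g02607 had the largest mean difference of 48 and 72 h among all members. In control buds it stood at 3.06, 3.69, 5.55, 4.24 and 5.04 CPM, with 4.31 CPM before treatment. With ABA it stood at 2.87 and 4.28 CPM at 6 and 12 h, and then at 62.8, 182 and 41.7 CPM at 24, 48 and 72 h. The early libraries were alike and the later ABA libraries stood far apart from every control. The 24 h ratio was 11.7 (interval 8.21 to 17.1), the 48 h ratio 43.7 (30.8 to 64.2) and the 72 h ratio 8.26 (5.51 to 12.8).

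Not every member peaked at 48 h. The member with the largest 72 h difference was counted at 2 tags before treatment and at 0, 1, 0, 1 and 1 tags in control buds from 6 to 72 h. With ABA it had 1, 1 and 5 tags at 6, 12 and 24 h and then 102 at 48 h and 81 at 72 h, or 15.8 and 16.3 CPM. It was near absent until 24 h and stayed level between the last times. Another member reached 15.5 CPM with ABA beside 0.984 CPM in the control at 24 h, and at 19.6 against 1.14 CPM at 48 h, so nearly all of its difference was present at 24 h. A single member, at 47.4 CPM against 13.4 CPM at 24 h and 39.8 against 14.1 CPM at 48 h, had a larger difference at 24 h than at 48 h. In pre-treatment buds it stood at 39.5 CPM, close to the ABA level of 48 h, and its control of 24 and 48 h was more than 2-fold below pre-treatment.

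**Figure D2:**
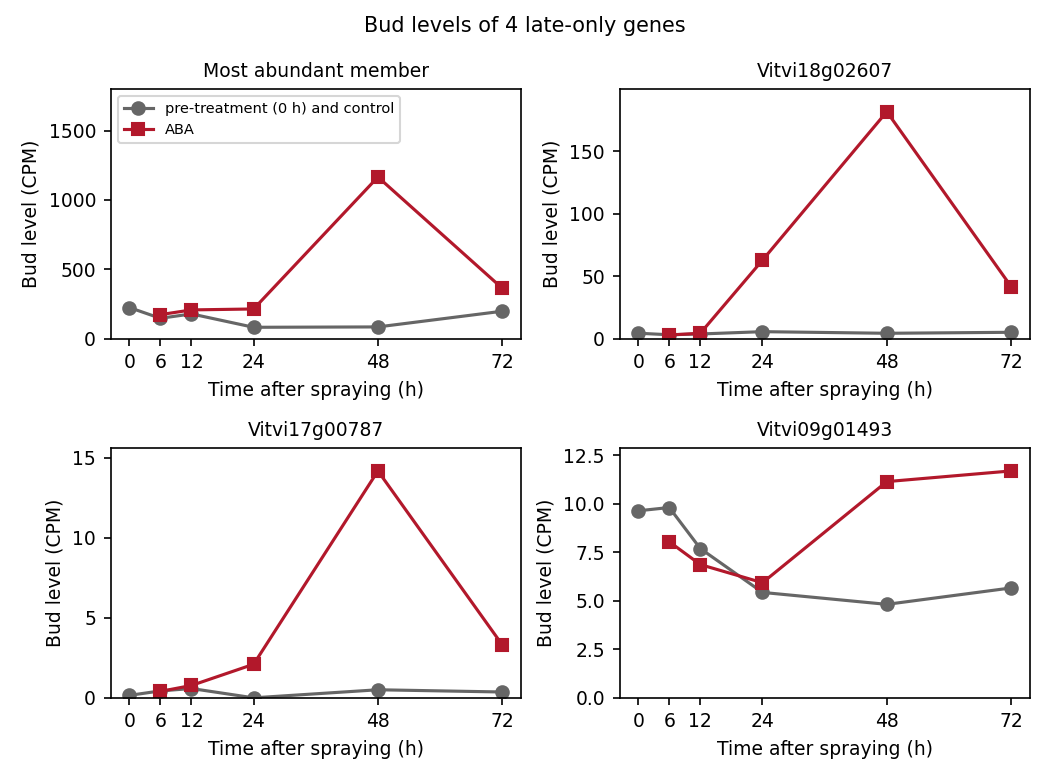
Bud levels in CPM against hours after spraying for the most abundant late-only gene and 3 identifiers, with control (and pre-treatment at 0 h) in grey and ABA in red. Each point is 1 bud group of 3 or 4 columns without error bars, and the axes start at 0; 3 of the genes peak at 48 h and Vitvi09g01493 is about level from 48 to 72 h.

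The 24 h buds were not used to choose the genes and show where the members stood between the early and late times. At 24 h, 17 of 51 members (33.3%) were at least 2-fold higher with ABA, on the log2(CPM + 1) scale, against 6.05% of all genes with a bud count. Among members with at least 5 CPM in some bud group it was 15 of 27, against 8.95% of all such genes. All 27 reached that level with ABA at 48 or 72 h, times that the rule used. The other genes could reach it in any bud group, so these shares are not like for like. The median difference of the 51 was 0.80, with quartiles of 0.26 and 1.39. In 26 members the difference was at least 0.8, in 9 it was between 0.4 and 0.8, in 13 it was under 0.4 in size and in 3 it was −0.4 or lower. In all, 41 lay above 0 and 10 below. The 24 h difference was smaller than that of 48 h in 50 members, and larger than that of 72 h in 11.

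Counting error alone left many of these values unresolved. The ratio's interval lay above 1 in 22 members at 24 h. For 6, 12, 48 and 72 h that number was 1, 2, 50 and 40, and the interval lay below 1 in none at any of the 5 times. The rule set limits on the differences of 6, 12, 48 and 72 h, so those numbers largely restate the choice. Intervals were not counted over all bud genes, so the 22 have no share to be set beside. The 3 members at −0.4 or lower had 0, 0 and 10 tags with ABA and 2, 5 and 19 in the control, and each interval reached above 1.

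Sustained genes had a median difference of 2.11 at 24 h, and 86.3% were at least 2-fold higher. Early passing genes had a median of 0.47, and 13.3% were at least 2-fold higher. Late-only genes lay between these sets at 24 h. The sets were chosen on neighbouring times of the same course and differ in level, so this order is a description.

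**Figure D3:**
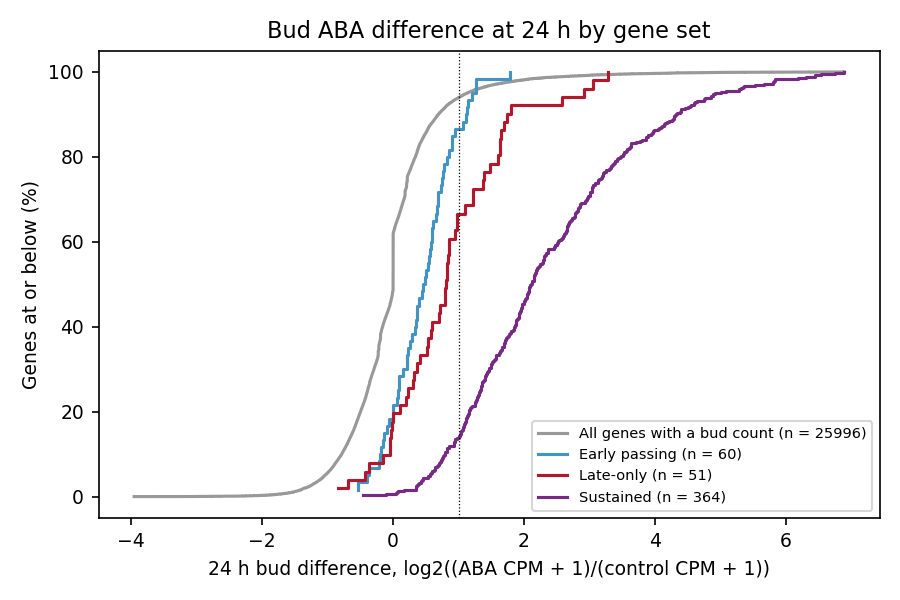
Share of genes (%) at or below each 24 h bud difference, log2((ABA CPM + 1)/(control CPM + 1)), for late-only (51), sustained (364), early passing (60) and all genes with a bud count (25996); the dotted line marks a 2-fold difference. The late-only curve crosses the line with 33.3% of genes to its right, the early passing curve with 13.3% and the sustained curve with 86.3%.

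At the other end stood Vitvi13g00187, the member with the lowest 24 h difference among those with at least 5 CPM in the 24 h control. It stood at 11.9 CPM before treatment and at 11.2, 8.51, 7.59, 9.82 and 11.7 CPM in control buds. With ABA it stood at 9.71, 7.61, 5.62, 18.8 and 21.1 CPM. The ABA library was the lower of the pair until 24 h, with a 24 h ratio of 0.732 (interval 0.47 to 1.14), and the higher at 48 and 72 h, with ratios of 1.86 (1.39 to 2.51) and 1.80 (1.31 to 2.51).

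Membership of a single gene was sensitive to counting noise. Leaving out column 1, 2 or 3 of every bud group gave 57, 55 and 49 genes by the same rule, of which 26 were members in each case. In all 3 of these settings 11 members were kept, the 2 most abundant among them, and 10 were kept in none. With TMM scaling in place of column totals, however, neither of the 2 most abundant met the rule, nor did Vitvi13g00187. The 11 had median differences of 0.97, 2.65 and 1.62 at 24, 48 and 72 h, and 5 were at least 2-fold higher at 24 h. Vitvi18g02607 was kept without columns 1 and 2, and Vitvi17g00787, Vitvi09g01493 and Vitvi13g00187 were each kept in 1 of the 3 settings. The 16 members at or above 1 CPM in all 4 libraries of 6 and 12 h had median differences of 0.46, 1.20 and 1.06 at 24, 48 and 72 h, and 6 of them were at least 2-fold higher at 24 h.

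In the table, identifiers carry 20 prefixes, and the members fell under 17 of them, with at most 6 under 1 prefix. No members were adjacent, and 2 pairs lay within 10 rows of each other.

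The leaf libraries, with replicates, address whether the same genes responded to ABA in another organ. Most members were too scarce there to test. With edgeR's quasi-likelihood test, 13378 leaf genes passed the filter on low counts, and they included 12 of the 51 members (23.5%), 64.6% of the sustained set and 60% of the early passing set. The other 39 members had 0 to 180 tags over all 40 leaf libraries, with a median of 18, and 2 had no leaf tag. The 12 tested members had mean leaf levels of 3.01 to 207 CPM. They were also the more abundant ones in buds, with a median of 10.1 CPM before treatment against 0.430 CPM for the rest.

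At 2 and 4 h after spraying, 1 of the 12 members was called higher with ABA at each time and none lower. Of all tested genes, 0.0897% and 0.882% were called higher and 0.00747% and 0.673% lower at these times. At 24 h no member was called by edgeR, with 1.97% of tested genes called higher and 1.18% lower. DESeq2 called 1 member higher and 1 lower, beside 353 and 233 of 13378 tested genes. The unadjusted edgeR p lay under 0.05 in 2 members, a count not made over all genes. At 48 h 1 member was called higher and none lower, beside 1.56% and 0.65% of tested genes. The median log2 change of the 12 was 0.02, 0.32, 0.36 and 0.16 in order of time, and that of all tested genes lay between −0.01 and 0.01. Members with a change above 0 numbered 6, 9, 7 and 8. A contrast of the late effect (mean of 24 and 48 h) minus the early effect (mean of 2 and 4 h) called no member higher and 1 lower, against 2% and 1.58% of tested genes, with a median of −0.01 over the 12.

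Vitvi18g02607 rose in leaves at 48 h. Its ABA libraries of 48 h stood at 28.7, 3.78, 11.6 and 3.74 CPM (mean 11.9 ± 11.7, SD, n = 4), and its controls at 0.527, 1.05, 0.933 and 1.44 CPM (0.988 ± 0.378). Every ABA library lay above every control, though the ABA libraries themselves differed widely. The log2 change was 3.48 ± 0.91 (SE, edgeR adjusted p = 0.0301). Without ABA replicate 1 or 3, or without any 1 of the controls, the adjusted p lay between 0.0664 and 0.109 and the log2 change between 2.56 and 3.73.

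At 24 h the same gene stood at 4.58, 19.4, 10.9 and 2.36 CPM with ABA and at 0, 0.891, 2.93 and 0.661 CPM in controls, and the groups overlapped. Its log2 change of 2.95 ± 0.92 (SE) did not pass (edgeR adjusted p = 0.0699). The 2 h means were 1.73 ± 0.949 CPM for ABA and 2.01 ± 1.83 for the controls, and the 4 h means 2.68 ± 1.97 and 2.29 ± 2.14 (SD, n = 4). Mean leaf levels thus lay close at 2 and 4 h and higher with ABA at 24 and 48 h. Only the 48 h difference passed in the main edgeR fit. The 24 h change passed by DESeq2 (adjusted p = 0.0362) and in the unfiltered edgeR fit (0.0434). It did not pass without any 1 library (edgeR adjusted p of 0.0512 to 0.235). The late minus early contrast was 3.11 ± 0.98 (SE) and did not pass in the main fit (edgeR adjusted p = 0.0596). This contrast passed by DESeq2 (adjusted p = 0.0221), and by edgeR unfiltered (0.0426) and with only the groups compared (0.0459). It did not pass without any 1 replicate number (edgeR adjusted p of 0.102 to 0.236).

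Vitvi17g00787, chosen after its values were seen, rose early in leaves. Its ABA libraries of 2 h stood at 21.3, 13.2, 15.9 and 9.08 CPM and its controls at 2.12, 2.07, 2.68 and 2.27 CPM. At 4 h they stood at 13.1, 14.0, 6.80 and 7.90 CPM against 2.09, 2.18, 1.42 and 0.982 CPM. Every ABA library lay above every control at both times. The 2 h log2 change was 2.72 ± 0.44 (SE, edgeR adjusted p = 0.00208) and the 4 h change 2.63 ± 0.46 (0.00150). The pre-treatment libraries ran from 1.00 to 7.60 CPM with a median of 4.53, so 2 h controls lay in the lower part of the pre-treatment range.

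At 48 h Vitvi17g00787 averaged 3.00 ± 1.22 CPM in ABA leaves and 1.26 ± 0.524 in control leaves (SD, n = 4). The lowest ABA library, at 1.65 CPM, lay just above the highest control, at 1.58 CPM. Its log2 change of 1.23 missed the threshold (edgeR adjusted p = 0.260). The late minus early contrast was −1.65 ± 0.52 (SE) and did not pass (edgeR adjusted p = 0.0597). In buds the same gene had 2, 4, 14, 92 and 16 tags with ABA over the 5 times, against 3, 3, 0, 4 and 2 in controls. Its bud tags were thus too few at 6 and 12 h for a firm statement, with intervals of the ratio from 0.0819 to 8.56 and from 0.226 to 9.12.

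Vitvi09g01493, also chosen after its values were seen, was the member called lower in the late minus early contrast, at −2.08 ± 0.60 (SE, edgeR adjusted p = 0.0454). At 24 h it stood at 0.509, 3.76, 6.57 and 3.31 CPM with ABA and at 25.3, 8.46, 5.86 and 23.8 CPM in controls. The groups overlapped by 1 library, and the log2 change of −2.19 ± 0.66 (SE) did not pass (edgeR adjusted p = 0.0594). The 2 h means were 9.67 ± 2.79 CPM for ABA and 5.60 ± 2.12 for the controls, and the 48 h means 8.31 ± 8.11 and 13.8 ± 10.6 (SD, n = 4). Of the leaf libraries, 4 share a code in their descriptions that was read here as a second flow cell. The contrast did not pass when these 4 were left out (edgeR adjusted p = 0.123), nor without any single replicate number (0.0631 to 0.229). In buds its late ABA levels of 11.1 and 11.7 CPM lay above controls of 4.82 and 5.66 CPM, at ratios of 2.34 (interval 1.55 to 3.57) and 2.09 (1.32 to 3.37).

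**Figure D4:**
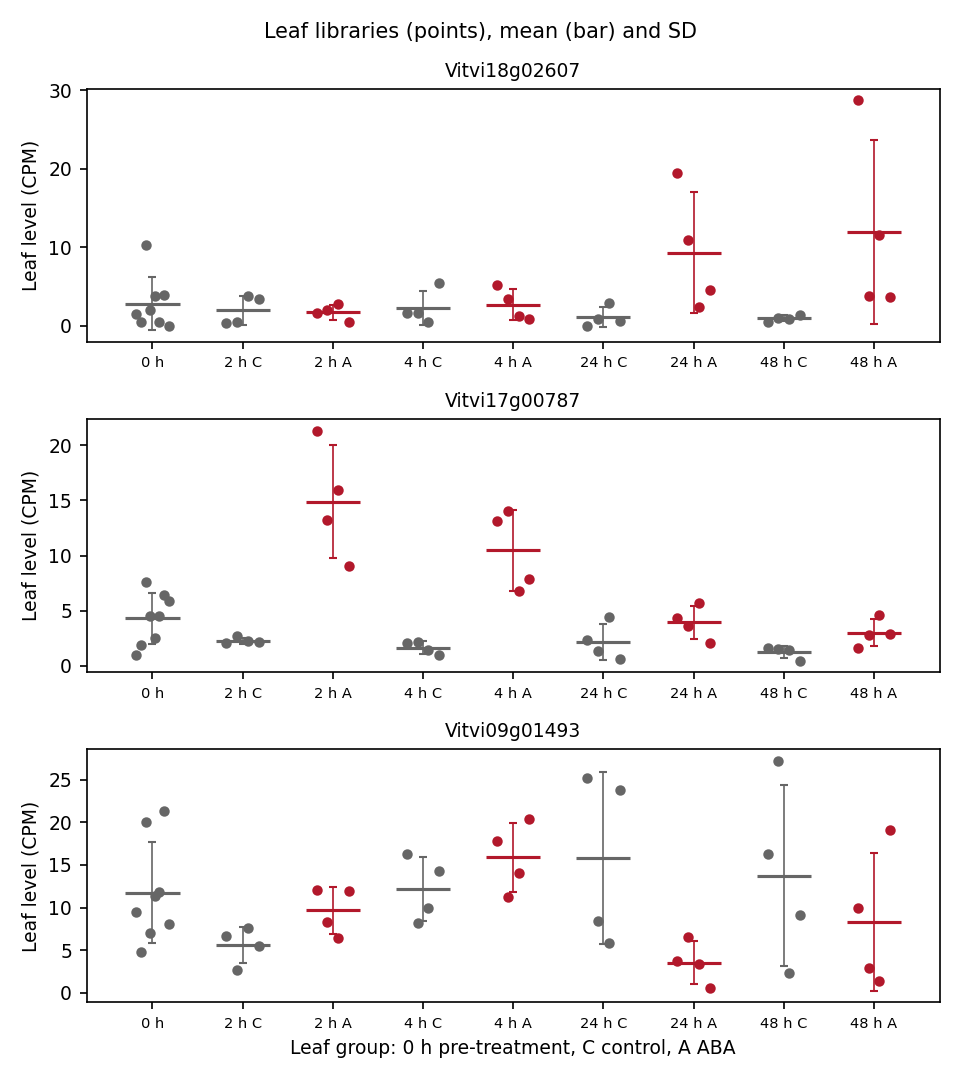
Leaf levels in CPM of 3 late-only genes in every leaf library (points) with the group mean (bar) and SD, for pre-treatment (8 libraries) and control (C, grey) and ABA (A, red) at 2, 4, 24 and 48 h (4 each). Vitvi18g02607 is higher with ABA in all 48 h libraries. Vitvi17g00787 is higher with ABA in all 2 and 4 h libraries and, by a small margin, in all 48 h libraries. Vitvi09g01493 has overlapping groups at 24 and 48 h.

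The abundant bud members were abundant in leaves too. The most abundant had a mean leaf level of 179 CPM and log2 changes with ABA of −0.63, 0.07, 0.45 and 0.40 at 2, 4, 24 and 48 h, and the second had 207 CPM and 0.09, −0.19, 0.61 and 0.78. None of these passed (edgeR adjusted p of 0.234 or higher). Vitvi13g00187 had log2 changes of −0.45, −0.34, −0.26 and −0.45 in leaves, none of which passed (edgeR adjusted p of 0.583 or higher). Counting all 12 tested members, every ABA library lay above every control in 1, 1, 1 and 2 members at 2, 4, 24 and 48 h. Every ABA library lay below in 1, 1, 0 and 0. The same count was not made over all tested genes, so it cannot be said whether these numbers are unusual.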

How the data were processed

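The deposited values were raw read counts per gene in a leaf and a bud table, whole numbers that the authors had not normalized, as the column totals show. Libraries were made with a 3′ tag kit (QuantSeq), per the labels' protocols. FastQC, STAR and DESeq2 are named in the submitters' processing notes. The build, the annotation and how tags were counted were not stated in the labels or headers, so genes with near-identical copies or antisense partners are uncertain. Columns were matched to samples by title; 8 pre-treatment leaf columns, whose header names are repeated in the table, were used as members of their group only. None of the 42413 identifiers matched the gene table used for names, so no sequences are shown. Bud samples titled 72 h carry a code of 75 in their description.

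Bud levels were means of CPM over columns (Python 3.11.15, pandas 2.3.3), and bud ratios were of summed counts. Leaf counts were tested with edgeR 4.0.16 (R 4.3.3): TMM scaling, filterByExpr with a minimum count of 10, 1 mean per leaf group, the quasi-likelihood test and Benjamini-Hochberg adjustment over 13378 genes, calling an adjusted p under 0.05. DESeq2 1.42.0 was an alternative. Which vine gave which library is not in the labels, so the p-values reflect only how far the libraries of a group lay apart.

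The members, comparison sets, tests and naming rule were chosen with earlier results of these data known. By that rule Vitvi18g02607 had the largest late bud difference (at least 5 CPM) and the largest leaf rise among called members without overlap, and Vitvi13g00187 the lowest 24 h bud difference with at least 5 CPM in the control.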

Additional observations from a re-analysis of the deposited data

Results flagged for a closer look

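Of 36 leaf groups looked at for the named genes (4 genes, 9 groups each), 4 held a library far from the others of its group, meaning that its gap to the nearest library, as a share of the group's range, passed Dixon's 95% critical value. By the construction of that value, chance gives about 1 such group in 20. One pre-treatment library of Vitvi18g02607 stood at 10.3 CPM, above 3.97 CPM in the next. For Vitvi13g00187, ABA replicate 1 of 24 h stood at 14.8 CPM against 4.39 to 5.84 CPM in the others, and control replicate 2 of 24 h at 11.6 CPM against 8.31 to 8.59. The first of these libraries carries the code read as the second flow cell, whose part in the value was not tested. For Vitvi17g00787, control replicate 4 of 48 h stood at 0.481 CPM against 1.40 to 1.58. The ABA effect on Vitvi09g01493 differed between late and early leaf times by −2.08 on the log2 scale (edgeR adjusted p = 0.0454). This call was lost with only the groups compared (edgeR adjusted p = 0.0508), without the second flow cell (0.123), with flow cell as a term (0.194) and without any 1 replicate number (0.0631 to 0.229).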

How the results depend on the processing

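The choice of members moved with the pseudocount and limits. With 5 CPM added, 25 genes met the rule, 10 of them members, and with 0.5 CPM 58, of which 34 were members. Asking for at least 5 CPM in some bud group left 27, limits of 1 and 0.3 left 23, and limits of 0.6 and 0.5 gave 156. Leaving out columns gave 49 to 57 and summed columns 51. TMM scaling gave 44, of which 39 were members, without the 2 most abundant and several of the other members tested in leaves. Of the 51 members, 30 were at least 2-fold higher at 24 h with 0.5 CPM added and 7 with 5 CPM, since that scale shrinks scarce genes; leaving out columns gave 17 to 23.

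In leaves, DESeq2 called 0 members at 2 and at 4 h, because it gave Vitvi17g00787 no adjusted p there. At 24 h it called 2 of 12 members beside 586 of 13378 genes, and the unfiltered fit 3 of 49 beside 399 of 26562. Leaving out a library gave 0 to 1 (1 without ABA replicate 3 or control replicate 3). At 48 h only the groups compared gave 0, where 6 members were tested and Vitvi18g02607 was not among them. Leaving out a library of 48 h gave 0 to 1. The late minus early contrast called 3 of 12 members by DESeq2 and 3 of 49 unfiltered, beside 787 and 418 genes. In each of these fits 1 member was higher and 2 were lower, beside 432 and 241 genes higher. With only the groups compared the contrast called 2 of 11, 1 higher and 1 lower, beside 488 genes, 269 of them higher. It called 0 without the second flow cell, 0 with flow cell as a term, and 0 without any replicate number (0 to 0). The cause of the other changes was not tested. Same-numbered replicates did not pair (r of −0.22 to 0.16), and with the replicate block the counts were 1, 1, 0, 1 and 1. Of 95 alternatives for counts 67 stayed within 1.5 times, and of 120 for named genes 96 were counted as keeping direction and side of the threshold and 0 reversed. The 96 include the DESeq2 fits of Vitvi17g00787 at 2 and 4 h, which kept direction but had no adjusted p. The second flow cell was read from a code in the sample descriptions. It held control replicate 1 of 2 h, ABA replicate 1 of 24 h and ABA replicates 3 and 4 of 48 h. Depth limits the scarce members: 1 tag in the 24 h control was 0.158 CPM.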
